A study of Mus musculus with 18 samples.

Results

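The fluid that lines the airways carries proteins that bind, starve, lyse or neutralise microbes, and 10 mouse genes for such proteins are described here in 6 sorted cell populations. The 10 symbols were taken as a list, mapped to the Entrez identifiers of the count files and found among 27179 counted genes, and all 10 passed the filter on low counts that kept 17989 genes for testing. *Bpifa1* and *Bpifb1* encode secreted proteins of the BPI fold family, relatives of the bactericidal/permeability-increasing protein of granulocytes. *Reg3g* encodes a secreted C-type lectin that binds peptidoglycan of Gram-positive bacteria, *Lyz2* a lysozyme that cuts peptidoglycan, and *Defb1* a cationic beta-defensin peptide. *Ltf* encodes lactoferrin, which binds iron, and *Lcn2* encodes lipocalin 2, which binds the iron carriers of bacteria. *Slpi* and *Wfdc2* encode secreted proteins with whey acidic protein (WAP) domains, the first of them an inhibitor of neutrophil proteases. *Pigr* encodes the receptor that carries dimeric IgA across the epithelium and leaves its outer part on the antibody as secretory component.

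In the airway, such proteins are made largely by the non-ciliated secretory cells, club and goblet cells, and by glands below the surface. Basal stem cells (BSCs) lie under these luminal cells and renew them. In the alveoli, type 2 cells make surfactant together with lysozyme and the collectins that bind microbes. Several of the 10 genes are also known from leukocytes: *Ltf* and *Lcn2* are granule genes of neutrophils, and *Lyz2* is a gene of macrophages and neutrophils.

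RNA was sequenced from sorted cells of untreated C57BL/6 mice, with 3 libraries for each of 6 populations and 18 in all. The animals were young adult males by the methods of the study. Tracheal BSCs (NGFR-positive) and tracheal non-basal cells (NGFR-negative) came from mice 1 to 3. Airway CD24hi cells (EpCAM-positive, CD104-positive, CD24hi, enriched in ciliated cells), airway CD24lo cells (the same with CD24lo, enriched in club cells), alveolar cells (EpCAM-positive, CD104lo) and EpCAM-negative, non-epithelial cells came from the lungs of mice 4 to 6. Each population is a gate and holds several cell types, and tracheal and lung cells differed in organ, animal, enzyme used for digestion and depth, which cannot be told apart. Libraries held 29317215 to 32993621 counted reads in trachea and 9811503 to 13208897 in lung. By a chi-square test of their counts, library 1 of BSCs, non-basal, CD24hi and CD24lo cells and library 2 of alveolar cells stood apart from both other libraries of their population. Without these 5 libraries, every comparison below called the same number of the 10 genes. The gates matched their labels by defining markers. The basal list (*Krt5*, *Krt14*, *Trp63*, *Ngfr*, *Itgb4*) summed to between 1864 and 1944 RPKM in BSCs and 146 to 187 RPKM in non-basal cells. The club list (*Scgb1a1* and 4 others) summed to 498938 to 702012 RPKM in CD24lo cells and 74042 to 97140.1 RPKM in CD24hi cells. *Scgb1a1* made up most of both sums, with means of 598605 and 78229 RPKM. The ciliated list (*Foxj1* and 4 others) summed to 1391 to 1505 RPKM in CD24hi cells and 118 to 255 RPKM in CD24lo cells. In EpCAM-negative cells the fibroblast list (*Col1a1* and 4 others) summed to 6710 to 6999 RPKM. Surfactant protein C and 4 further alveolar type 2 markers summed to 166634 to 186473 RPKM in alveolar cells.

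The 10 genes lie on 6 mouse chromosomes. Coordinates are those of the mm10 (GRCm38.p6) build. *Bpifa1* (chr2:154142880-154149217) and *Bpifb1* (chr2:154190818-154220343) are 41600 bp apart on chromosome 2. *Slpi* (chr2:164354070-164356507) and *Wfdc2* (chr2:164562715-164568510) lie 206207 bp apart on the same chromosome, which also holds *Lcn2* (chr2:32384637-32387739). The others are *Reg3g* (chr6:78466269-78468874), *Ltf* (chr9:111019292-111042766), *Lyz2* (chr10:117277541-117282272), *Defb1* (chr8:21776555-21795185) and *Pigr* (chr1:130826684-130852249). A near copy of *Lyz2*, *Lyz1*, is 5522 bp away from it, and the longest transcripts of the pair are 92.0% identical over their alignment.

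The 60 bases before the start site are shown for the 3 genes whose levels ran most closely together, *Bpifa1*, *Reg3g* and *Ltf*, and for the lysozyme pair, whose levels parted between trachea and lung as described below. Sequences are from RefSeq on GRCm38.p6, 5′ to 3′ on the strand of the gene. Capitals mark TATAAA in *Bpifa1* and *Reg3g* and the single base at which the lysozyme pair differs.
Bpifa1 (chr2:154142820-154142879, plus strand): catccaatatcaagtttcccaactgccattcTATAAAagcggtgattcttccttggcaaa
Reg3g (chr6:78468875-78468934, minus strand): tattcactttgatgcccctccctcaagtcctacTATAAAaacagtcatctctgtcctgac
Ltf (chr9:111019232-111019291, plus strand): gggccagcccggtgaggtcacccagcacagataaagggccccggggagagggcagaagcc
Lyz2 (chr10:117282273-117282332, minus strand): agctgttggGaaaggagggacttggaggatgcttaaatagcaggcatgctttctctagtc
Lyz1 (chr10:117292869-117292928, minus strand): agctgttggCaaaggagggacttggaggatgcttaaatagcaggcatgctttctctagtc

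Of the 9 genes with an entry in the RefSeq promoter table, 2 held the letters TATAAA on either strand of this window, *Bpifa1* starting 29 bases and *Reg3g* starting 27 bases before the start site. The same letters stood in 3.92% of 32851 promoters over a window of the same length. *Ltf*, whose level followed both genes, did not hold them there. *Lyz2* and *Lyz1* shared 59 of the 60 bases (98.3%), with the difference G10C counted from 1 at the first base printed and written from *Lyz2* to *Lyz1*. Over 250 bases before the start site they were 79.4% identical.

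All levels below are RPKM, the reads of a gene per kilobase of its counted length and per 1000000 reads of TMM-scaled library size, so they can be set beside each other between genes. By mean level, 6 of the 10 genes were highest in tracheal non-basal cells (*Bpifa1*, *Bpifb1*, *Reg3g*, *Ltf*, *Wfdc2* and *Pigr*), 3 in alveolar cells (*Lyz2*, *Lcn2* and *Slpi*) and 1 in BSCs (*Defb1*). When the 6 populations were ordered by level for each gene, 34 of the 50 pairs of neighbours had no overlap between their libraries and 16 overlapped, with 42.1% of such pairs not overlapping over all genes tested. Together, the 10 genes took 17.6% to 18.5% of all counted reads in the 3 non-basal libraries, 4.08% ± 0.357 (SD, n = 3) in alveolar cells, 2.17% ± 0.650 in BSCs and 1.55% to 2.06% in the CD24lo libraries. They took 0.349% ± 0.0858 in CD24hi cells and 0.0385% ± 0.00671 in EpCAM-negative cells. As these are bulk samples, fewer cells of a type and less RNA per cell cannot be told apart in any of the values.

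**Figure D1:**
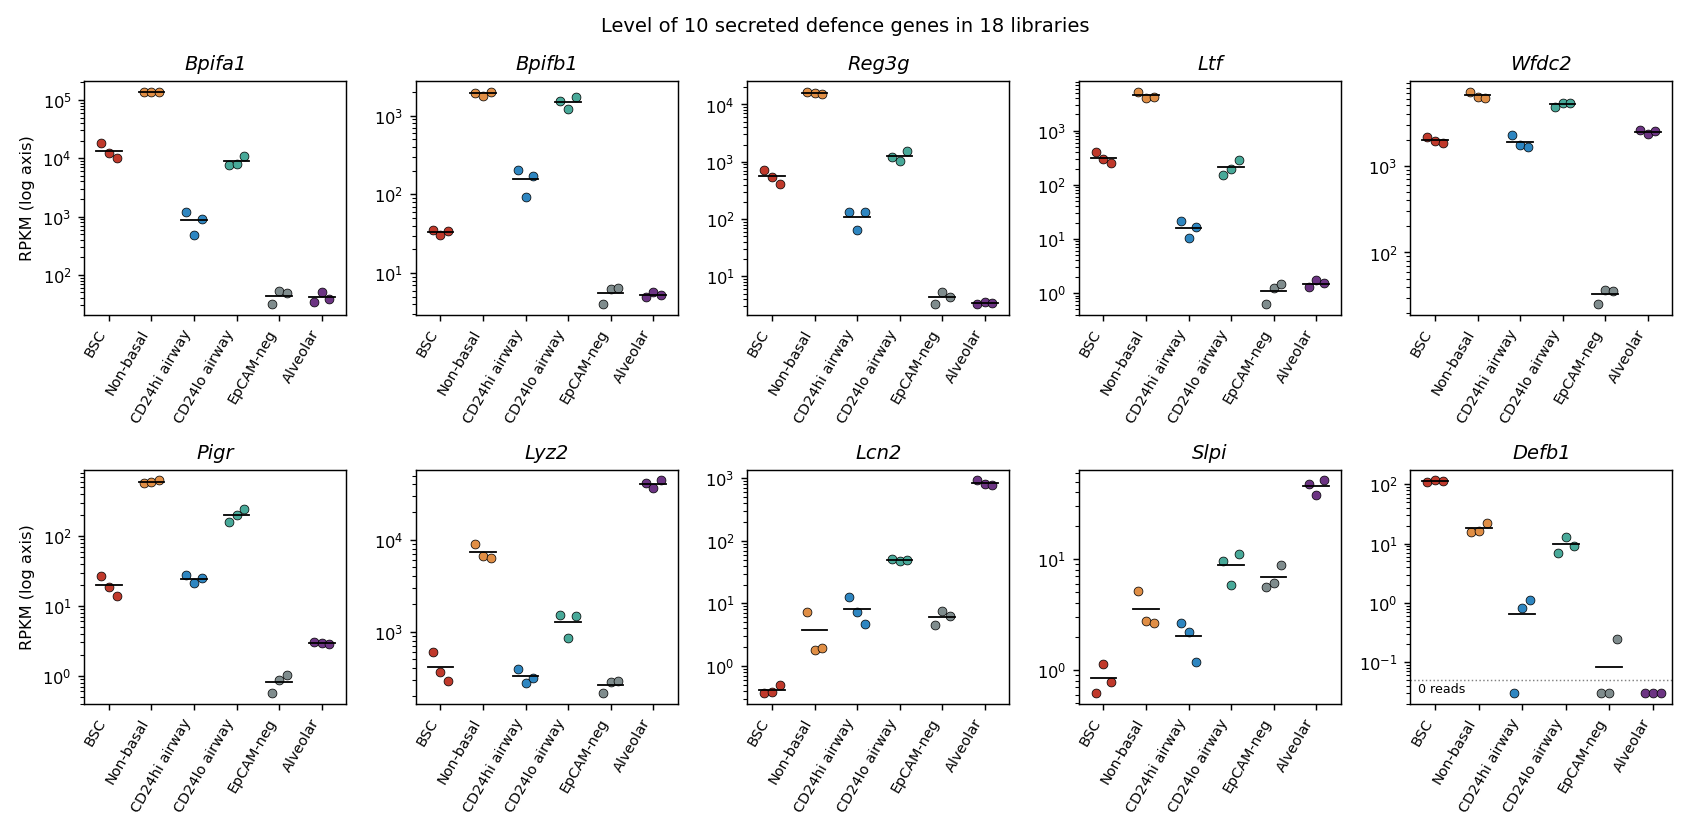
RPKM on a log axis of each of the 10 genes in the 18 libraries, with 1 point per library, a bar at the population mean, and libraries without reads drawn below the dotted line. *Bpifa1*, *Bpifb1*, *Reg3g*, *Ltf*, *Wfdc2* and *Pigr* peaked in non-basal cells, *Lyz2*, *Lcn2* and *Slpi* in alveolar cells, and *Defb1* in BSCs.

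*Bpifa1* alone took 14.0% ± 0.140 (SD, n = 3) of the reads of non-basal cells. Its level was 138642, 136753 and 134879 RPKM in the 3 non-basal libraries, 18174, 12367 and 10112 RPKM in BSCs, and 7774, 8106 and 10883 RPKM in CD24lo cells. It fell to 1194, 479.8 and 923 RPKM in CD24hi cells, 31.1, 52.3 and 48.2 RPKM in EpCAM-negative cells and 34.8, 51.3 and 38.9 RPKM in alveolar cells. *Bpifa1* was thus the gene of highest level per length in both tracheal populations, rank 1 of 27179, and rank 7 in CD24lo cells. BSC and CD24lo libraries overlapped in *Bpifa1*, as did EpCAM-negative and alveolar libraries, while the other neighbours in its order were separate.

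**Figure D2:**
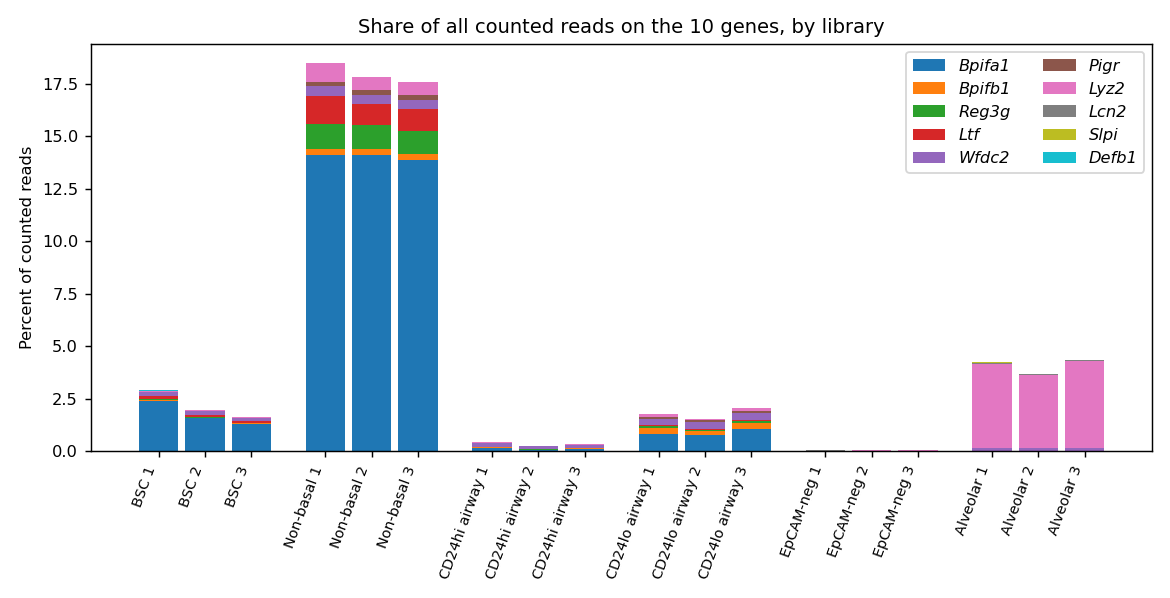
Percent of all counted reads that fell on the 10 genes, as stacked bars with 1 bar per library. *Bpifa1* filled most of each non-basal bar, and *Lyz2* filled nearly all of each alveolar bar.

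*Bpifb1* showed another balance between trachea and lung. Non-basal libraries held 1947, 1783 and 2021 RPKM of it. CD24lo libraries followed closely with 1537, 1213 and 1708 RPKM, while it was at only 35.6, 30.9 and 34.2 RPKM in BSCs. CD24hi cells had 204, 92.5 and 169 RPKM. The EpCAM-negative and alveolar libraries lay between 3.99 and 6.49 RPKM and overlapped. BSCs, which ranked second by mean for the nearby *Bpifa1*, with overlap with CD24lo cells, thus came below CD24hi cells for *Bpifb1*, without overlap.

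*Reg3g* and *Ltf* followed *Bpifa1* most closely. *Reg3g* was at 16742, 15845 and 15192 RPKM in non-basal cells, at 1207, 1032 and 1519 RPKM in CD24lo cells and at 722, 544 and 411 RPKM in BSCs. The non-basal libraries had 5259.8, 4025 and 4137 RPKM of *Ltf*, which stood at 406, 297 and 252 RPKM in BSCs and 153, 199 and 289 RPKM in CD24lo cells. In every non-basal library both genes lay above every library of the other 5 populations. CD24hi libraries held 65.4 to 132 RPKM of *Reg3g* and 10.4 to 21.1 RPKM of *Ltf*. In EpCAM-negative and alveolar cells, *Reg3g* lay between 3.22 and 5.33 RPKM and *Ltf* between 0.615 and 1.71 RPKM. Pearson's r of log2 (RPKM + 0.1) is given as a description over the 18 libraries, which are 3 libraries of each of 6 populations. It was 0.996 between *Bpifa1* and *Ltf*, 0.991 between *Bpifa1* and *Reg3g* and 0.986 between *Reg3g* and *Ltf*. Between *Bpifa1* and the nearby *Bpifb1*, with 1 protein-coding gene between them, it was 0.847.

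*Pigr*, the IgA transporter, had its peak in the non-basal libraries, at 574, 605 and 628 RPKM, followed by CD24lo cells with 161, 199 and 247 RPKM. It was at 27.6, 21.2 and 24.7 RPKM in CD24hi cells and 26.8, 18.7 and 14.1 RPKM in BSCs, which overlapped. Alveolar cells had 3.09, 2.96 and 2.81 RPKM, and EpCAM-negative cells 0.563, 0.858 and 1.03 RPKM. Its pattern was nearest to that of *Bpifb1* among the 10 genes (r = 0.967 over 18 libraries).

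*Wfdc2* was high in all 5 epithelial populations, with no library of them under 1657 RPKM. It was at 7219, 6229.8 and 6151 RPKM in non-basal cells, 4796, 5286 and 5316 RPKM in CD24lo cells and 2596, 2357 and 2516 RPKM in alveolar cells. BSCs had 2174, 1923 and 1844 RPKM, and CD24hi cells had 2303, 1742 and 1657 RPKM. Its rank among all genes per length was 10 in non-basal, CD24lo and CD24hi cells, 12 in BSCs and 20 in alveolar cells, against 2017 in EpCAM-negative cells, where it was at 25.1, 37.0 and 36.4 RPKM.

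*Lyz2* and *Lcn2* had their highest levels in alveolar cells. *Lyz2* was at 41892, 36527 and 44259 RPKM there, rank 2 of all genes, at 9042, 6577 and 6389.6 RPKM in non-basal cells and at 1508, 853 and 1482 RPKM in CD24lo cells. BSC, CD24hi and EpCAM-negative libraries lay between 214 and 595 RPKM. *Lcn2* was at 929, 805 and 786 RPKM in alveolar cells, at 51.6, 48.3 and 48.9 RPKM in CD24lo cells and at 12.5, 7.30 and 4.61 RPKM in CD24hi cells. The tracheal levels of *Lcn2* were low, with 0.367, 0.389 and 0.497 RPKM in BSCs and 7.39, 1.81 and 1.91 RPKM in non-basal cells, where the first library held 185 reads and the second 44. The pair therefore parted in the trachea, where *Lyz2* ranked 9 and *Lcn2* 9647 among all genes in non-basal cells.

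*Slpi*, the protease inhibitor, stayed below *Wfdc2*, the other WAP gene, in each population, and was nearest to it in EpCAM-negative cells (means of 6.83 and 32.8 RPKM). It was at 47.3, 38.1 and 51.3 RPKM in alveolar cells, 9.67, 5.83 and 11.2 RPKM in CD24lo cells and 5.59, 6.03 and 8.87 RPKM in EpCAM-negative cells. Non-basal cells had 5.13, 2.77 and 2.64 RPKM, CD24hi cells 2.67, 2.20 and 1.17 RPKM and BSCs 0.617, 1.14 and 0.774 RPKM. Its order of populations was close to that of *Lcn2* (r = 0.933 over 18 libraries), and alveolar libraries lay above all others.

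*Defb1* ran the other way from the 9 other genes within the trachea. BSC libraries held 3597 to 3870 reads of it, or 112, 117 and 113 RPKM, and non-basal libraries held 15.8, 16.4 and 22.5 RPKM. CD24lo cells had 6.94, 13.2 and 9.30 RPKM, and CD24hi cells 0, 0.809 and 1.12 RPKM. In alveolar cells no read was counted in any of the 3 libraries, which allows a mean level of up to 0.102 RPKM (3 reads over the 3 libraries, counting error only), and EpCAM-negative cells held 3 reads, all in 1 library.

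The first comparison set tracheal non-basal cells against BSCs of the same 3 mice, that is the luminal cells against the stem cells below them. Of the 10 genes, 9 were higher and 1 lower in non-basal cells in edgeR's quasi-likelihood test at a Benjamini-Hochberg adjusted p-value under 0.05, with 26.2% of all genes tested called higher and 21.9% lower. *Bpifb1* was 57.1-fold higher (log2 fold change 5.84 ± 0.27, SE; adjusted p = 2.53e-11), *Pigr* 30.3-fold (4.92 ± 0.23; 3.72e-11) and *Reg3g* 28.5-fold (4.83 ± 0.27; 2.9e-10). *Lyz2* was 17.6-fold and *Ltf* 14.0-fold higher, while *Bpifa1*, the most abundant, was 10.1-fold higher (3.34 ± 0.32; adjusted p = 1.56e-07). The WAP genes differed least among those that rose, *Slpi* by 4.13-fold and *Wfdc2* by 3.30-fold. *Defb1* was lower by 2.64 ± 0.27 on the log2 scale (adjusted p = 7.22e-07), or 6.23-fold higher in BSCs. *Lcn2* was 8.72-fold higher (log2 fold change 3.12 ± 0.55; adjusted p = 0.000134), and without the first non-basal library its log2 fold change was 2.14 (adjusted p = 0.000334). The median log2 fold change was 3.57 for the 10 genes and 0.02 for all genes tested. When libraries were scaled by their totals and not by TMM, the median of all genes moved to -0.31 and the share of higher genes among all called from 54.5% to 27.8%, and all 10 calls kept their direction.

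The size of the change between BSCs and non-basal cells can be set beside that of luminal markers measured in the same libraries. BSC levels were 9.91% of non-basal levels for *Bpifa1* (7.50% to 13.1% over the 3 mice), 7.12% for *Ltf*, 5.68% for *Lyz2*, 3.51% for *Reg3g*, 3.30% for *Pigr* and 1.75% for *Bpifb1* (1.69% to 1.83%). The corresponding values were 2.18% for *Scgb1a1* (1.60% to 2.70%), 1.76% for *Scgb3a1* and 2.02% for *Muc5b*, genes of club and goblet cells, but 14.9% to 17.1% over the 3 mice for *Scgb3a2* and 49.8% for *Cyp2f2*, which are also genes of secretory cells. The ratio of *Bpifb1* was thus close to those of *Scgb3a1* and *Muc5b*, and *Bpifa1* and *Wfdc2* (30.3%) above it in every mouse. *Bpifa1* lay within the range of the luminal markers, below *Scgb3a2* and *Cyp2f2*. The remaining club and goblet genes are given as RPKM in BSCs and in non-basal cells. They were *Aldh1a1* (649 and 3354), *Spdef* (4.48 and 23.2), *Agr2* (54.9 and 496), *Tff2* (7.37 and 95.9) and *Muc5ac* (0.116 and 2.23). In the other direction, *Krt5* in non-basal cells was at 7.79% of its BSC level and *Defb1* at 14.1% to 19.9% over the 3 mice. What part luminal RNA in the BSC gate has in these levels was not tested.

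**Figure D3:**
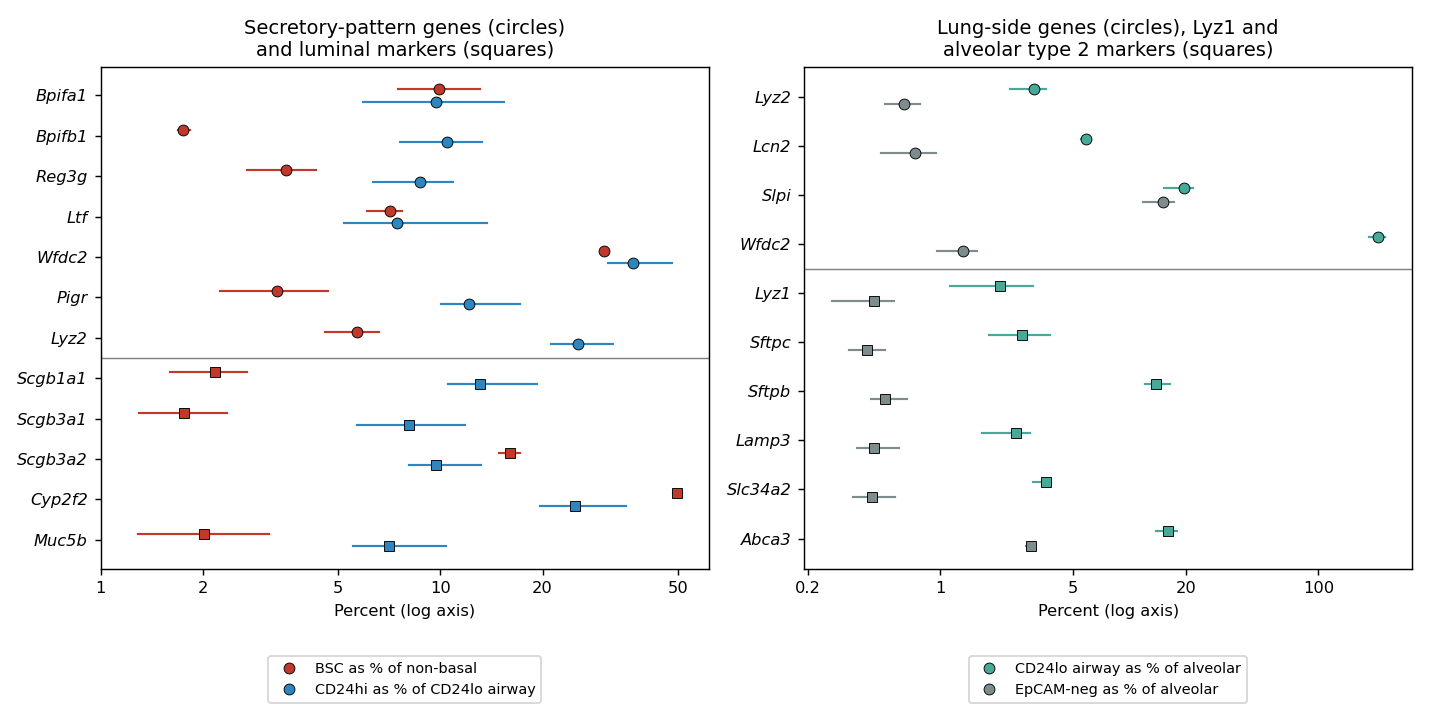
Level of a gene in one population as percent of its level in another, on a log axis, with points for the ratio of means and lines for the range over the same-numbered mice. On the left, *Bpifb1* in BSCs sat near the percent of *Scgb1a1*, *Scgb3a1* and *Muc5b*. *Bpifa1*, *Ltf* and *Wfdc2* sat higher, and the markers *Scgb3a2* and *Cyp2f2* sat above *Bpifa1*. On the right, *Lyz2* in CD24lo and EpCAM-negative cells sat near the percent of the type 2 markers *Sftpc* and *Lamp3* and below that of *Abca3*. *Slpi* sat higher than *Lyz2* and *Lcn2*.

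The second comparison set CD24lo against CD24hi airway cells, sorted from the same lungs and enriched in club and in ciliated cells. All 10 genes were higher in CD24lo cells, with 27.2% of all genes tested called higher and 27.8% lower. No member was lower by edgeR, also not at an unadjusted p under 0.05, and by limma voom or DESeq2 the count was 0 as well. *Ltf* was 13.4-fold higher (log2 fold change 3.74 ± 0.30, SE; adjusted p = 1.28e-08), *Reg3g* 11.5-fold (3.52 ± 0.26; 5.33e-09), *Bpifa1* 10.3-fold (3.37 ± 0.32; 9.32e-08), *Bpifb1* 9.58-fold (3.26 ± 0.23; 4.14e-09) and *Pigr* 8.25-fold (3.04 ± 0.21; 3.22e-09). These 5 genes therefore fell into a narrow range of fold changes. *Defb1* was 15.2-fold higher (3.93 ± 0.46; adjusted p = 2.58e-06) at 0 to 13 reads per CD24hi library. *Lcn2* (6.09-fold), *Slpi* (4.37-fold), *Lyz2* (3.93-fold) and *Wfdc2* (2.70-fold; adjusted p = 3.1e-07) differed less. The median log2 fold change was 3.15 for the 10 genes and 0.06 for all genes tested. With library size alone the median of all genes was -0.21 and the share of higher genes among those called went from 49.5% to 31.6%, with all 10 genes still higher.

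Markers of club and goblet cells were read in the CD24hi gate beside these values. *Scgb1a1* in CD24hi cells was at 13.1% of its CD24lo level (10.5% to 19.2% over the 3 mice), *Scgb3a2* at 9.69% and *Muc5b* at 7.06%. Between these 3 markers lay *Bpifb1* at 10.4%, *Bpifa1* at 9.70%, *Reg3g* at 8.73%, *Ltf* at 7.47% and *Pigr* at 12.1%. *Lyz2* (25.5%) and *Wfdc2* (37.0%) were above all 3. Among type 2 markers, *Sftpb* was at 22.1%, *Lamp3* at 25.1%, *Slc34a2* at 25.8%, *Sftpc* at 27.7% and *Abca3* at 66.4%. *Lyz2* and *Wfdc2* lay within the range of these type 2 markers. Of the other club markers, *Scgb3a1* was at 8.10% and *Cyp2f2* at 25.0%, and *Aldh1a1* was at 1183 RPKM in CD24hi and 2054 RPKM in CD24lo cells. The remaining goblet genes are given as RPKM in CD24hi and in CD24lo cells. They were *Agr2* (8.01 and 45.8), *Spdef* (1.48 and 9.33), *Tff2* (28.5 and 347) and *Muc5ac* (0.267 and 3.84). The shares of *Agr2* and *Spdef* were above that of *Pigr*, and those of *Tff2* and *Muc5ac* below it. In the opposite direction, *Foxj1*, the transcription factor of ciliated cells, was at 886% in CD24hi cells of its CD24lo level. The part of club cells in the CD24hi values, or of alveolar RNA in both gates, was not tested.

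The third comparison, between CD24lo airway cells and alveolar cells, divided the 10 genes. In CD24lo cells 7 were higher and 3 lower, with 24.2% of all genes tested called higher and 24.2% lower. The airway side was led by *Reg3g* (365-fold; log2 fold change 8.51 ± 0.35, SE; adjusted p = 1.99e-12), *Bpifb1* (279-fold; 8.12 ± 0.30; 8.35e-13), *Bpifa1* (214-fold; 7.74 ± 0.40; 3.31e-11), *Ltf* (142-fold; 7.15 ± 0.37; 3.8e-11) and *Pigr* (68.3-fold; 6.09 ± 0.25; 2.62e-12). *Wfdc2* differed by 2.06-fold (1.04 ± 0.15; adjusted p = 1.48e-05). *Defb1* was called higher (adjusted p = 4.8e-07), and its mean level in CD24lo cells was 96.2 times the limit that 0 alveolar reads allow. Lower in CD24lo cells were *Lyz2* by 5.00 ± 0.30 on the log2 scale (adjusted p = 3.08e-10), which is a 31.9-fold higher level in alveolar cells, *Lcn2* (16.9-fold; adjusted p = 5.54e-08) and *Slpi* (5.13-fold; adjusted p = 1.92e-06). The median log2 fold change of the 10 genes was 6.62, or 6.34 with *Defb1* at its ratio to this limit, and that of all genes 0.03.

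CD24hi cells against alveolar cells gave 6 genes higher and 4 lower, with 30.5% of all genes tested called higher and 31.4% lower. *Reg3g*, *Bpifb1*, *Bpifa1*, *Ltf* and *Pigr* were 31.9-, 29.1-, 20.8-, 10.6- and 8.28-fold higher, and *Lyz2*, *Lcn2* and *Slpi* were 125-, 103- and 22.6-fold higher in alveolar cells. For 2 genes the call was weak. *Wfdc2* was lower by 0.39 ± 0.15 on the log2 scale (adjusted p = 0.0304), which was lost with library size alone (-0.07; adjusted p = 0.676), in a fit of only the 6 libraries (-0.31; adjusted p = 0.0609) and without CD24hi library 2 (adjusted p = 0.109) or 3 (0.130) or alveolar library 1 (0.0841) or 3 (0.0810). *Defb1* was called higher in CD24hi cells (adjusted p = 0.0117) on 23 reads in all, with overlapping libraries. It was not called by limma voom (adjusted p = 0.0617). Its mean level was 6.29 times the alveolar limit, which is no lower bound, as the CD24hi libraries held 0 to 13 reads. The median log2 fold change of the 10 genes was 3.23, or 2.85 with *Defb1* at its ratio to this limit, and that of all genes -0.01. With library size alone the median of all genes was 0.29, and the share of higher genes among those called went from 49.2% to 65.4%. This comparison and the one before share their alveolar libraries.

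EpCAM-negative cells, set against alveolar cells, were a non-epithelial reference in which 5 of the 10 genes were lower, 5 were not called and 0 were higher, with 32.7% of all genes tested called higher and 29.2% lower. At an unadjusted p under 0.05 edgeR also had 0 higher, as had limma voom and DESeq2 at their adjusted p. *Lyz2* was 155-fold, *Lcn2* 136-fold, *Wfdc2* 75.9-fold, *Slpi* 6.67-fold and *Pigr* 3.62-fold higher in alveolar cells. *Wfdc2* gave the smallest adjusted p of these (log2 fold change -6.25 ± 0.19, SE; 1.13e-14), and *Pigr* the largest (-1.85 ± 0.26; 7.52e-06). The airway genes *Bpifa1* (0.08 ± 0.30), *Bpifb1* (0.07 ± 0.26), *Reg3g* (0.34 ± 0.35) and *Ltf* (-0.43 ± 0.38) had overlapping libraries and adjusted p-values of 0.339 to 0.851. The median log2 fold change was -1.14 for the 10 genes and 0.01 for all genes, and -1.85 over 9 genes without *Defb1*, for which no fold is given as both populations were at or under 3 reads. With library size alone the median of all genes was 0.19, and the 5 calls stayed.

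Airway and alveolar marker RNA in the EpCAM-negative and alveolar libraries can be read on the same scale. In alveolar cells *Bpifa1* was at 0.467%, *Bpifb1* at 0.359%, *Reg3g* at 0.273%, *Ltf* at 0.703% and *Pigr* at 1.46% of the CD24lo level. The same 5 genes were at 0.492%, 0.377%, 0.345%, 0.518% and 0.404% in EpCAM-negative cells. Of the secretory markers in alveolar cells, 5 ran from 0.299% for *Scgb3a1*, 0.300% for *Muc5b* and 0.474% for *Scgb3a2* to 0.670% for *Scgb1a1* and 1.26% for *Cyp2f2*. *Pigr* was thus above all 5 of these markers in alveolar cells and *Ltf* above 4 of them. In EpCAM-negative cells these 5 ran from 0.279% for *Scgb3a1* to 0.410% for *Cyp2f2*, and *Bpifa1* and *Ltf* were above them. *Aldh1a1*, also of the club list, was at 465 RPKM in EpCAM-negative, 71.9 RPKM in alveolar and 2054 RPKM in CD24lo cells. Its share of the CD24lo level was thus above that of all 5 members in both populations. Of other goblet genes, *Muc5ac* was at 0.0472 and 3.84 RPKM in EpCAM-negative and CD24lo cells, and *Spdef* at 0.0576 and 9.33 RPKM. *Agr2* (0.211 and 45.8 RPKM) and *Tff2* (0.873 and 347 RPKM) had shares below those of *Bpifa1* and *Ltf*, and *Muc5ac* and *Spdef* above them. These genes held 1 to 10 reads per EpCAM-negative library. In alveolar cells *Spdef*, at 3.97 RPKM, had a share above that of *Pigr*, and the other goblet genes lay below *Ltf*. On the alveolar side, EpCAM-negative cells held 0.645% of the alveolar level of *Lyz2*, 0.734% of that of *Lcn2* and 1.32% of that of *Wfdc2*, beside 0.407% for *Sftpc*, 0.437% for *Slc34a2*, 0.444% for *Lamp3*, 0.509% for *Sftpb* and 3.00% for *Abca3*, all type 2 markers. The 3 members thus lay above 4 of the 5 markers and below *Abca3*. *Slpi* stood apart with 11.8% to 17.3% over the 3 mice, and its EpCAM-negative libraries held 61 to 102 reads. In CD24lo cells *Lyz2* was at 3.13% and *Lcn2* at 5.90% of the alveolar level, beside 2.50% for *Lamp3*, 2.70% for *Sftpc*, 3.61% for *Slc34a2*, 13.8% for *Sftpb* and 13.8% to 17.9% over the 3 mice for *Abca3*. The part of alveolar or airway RNA in these low levels was not tested.

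**Figure D4:**
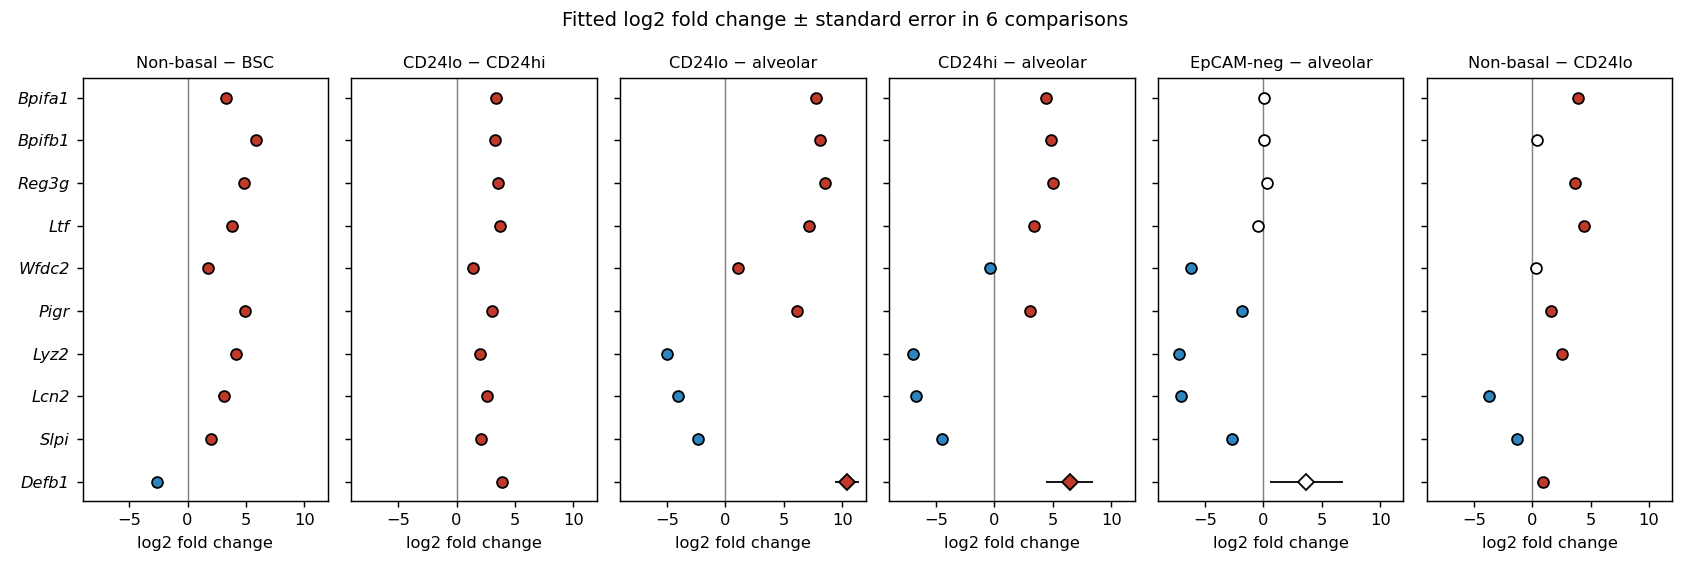
Fitted log2 fold change of the 10 genes in the 6 comparisons, with the standard error as a horizontal bar that is often shorter than the symbol. Red is higher and blue lower at an adjusted p under 0.05, white is not called, and diamonds mark *Defb1* against alveolar cells with 0 reads, where the fitted value is no bound; all 10 genes were red for CD24lo against CD24hi cells.

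The last comparison, of non-basal tracheal cells with CD24lo cells, set the luminal secretory populations of trachea and lung beside each other, and organ, mice, digestion and depth cannot be told apart in it. In non-basal cells 6 genes were higher, 2 lower and 2 not called, with 25.3% of all genes tested called higher and 27.8% lower. *Ltf* was 20.9-fold higher (log2 fold change 4.39 ± 0.31, SE; adjusted p = 3.52e-09), *Bpifa1* 15.3-fold (3.94 ± 0.33; 3.08e-08), *Reg3g* 12.7-fold (3.67 ± 0.26; 4.06e-09), *Lyz2* 5.73-fold (2.52 ± 0.27; 6.63e-07) and *Pigr* 2.98-fold (1.58 ± 0.20; 4.74e-06). *Bpifb1* (0.37 ± 0.22; adjusted p = 0.162) and *Wfdc2* (0.35 ± 0.15; adjusted p = 0.0579) were not called, although their libraries did not overlap. *Wfdc2* passed the threshold with DESeq2 (adjusted p = 0.0215), limma voom (0.0318), library size alone (0.0324) and no filter (0.0450). *Defb1* was 1.86-fold higher in non-basal cells (adjusted p = 0.0164), which was lost without non-basal library 3 (0.0745) or CD24lo library 1 (0.0662). *Lcn2* was 13.4-fold and *Slpi* 2.53-fold higher in CD24lo cells, and without non-basal library 1 the log2 fold change of *Lcn2* went from -3.74 to -4.73. The median log2 fold change of the 10 genes was 1.24, and that of all genes -0.04.

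*Lyz1* was followed beside *Lyz2* because reads of near copies can be assigned to either. Of the 100-base windows of the *Lyz2* transcript, 24 of 1217 (1.97%) also occur in *Lyz1*, and reads from such windows cannot be told apart. *Lyz1* was at 3229 RPKM in alveolar cells, 66.9 RPKM in CD24lo, 60.5 RPKM in non-basal, 14.4 RPKM in EpCAM-negative, 13.8 RPKM in CD24hi and 3.53 RPKM in BSCs. Its level in non-basal and CD24lo cells gave a log2 fold change of -0.15 ± 0.49 (SE; edgeR adjusted p = 0.823), while that of *Lyz2* was 2.52. The ratio of *Lyz2* to *Lyz1* was accordingly 119 to 126 in non-basal libraries and 84.9 to 278 in BSCs, against 13.9 to 32.4 in CD24lo, 21.5 to 26.0 in CD24hi, 13.5 to 23.5 in EpCAM-negative and 11.6 to 15.5 in alveolar libraries. The lysozyme pair, with 1 base of difference in the 60 bases shown above, thus held one ratio range in the trachea and a lower, separate one in the lung, as a description without a test. The BSC ratios rest on 47 to 312 *Lyz1* reads per library. As percent of its alveolar level, *Lyz1* was at 0.445% in EpCAM-negative, 0.427% in CD24hi and 2.07% in CD24lo cells. *Sftpc* was at 0.407%, 0.748% and 2.70% in the same order. What part alveolar RNA has in the lung ratios, or *Lyz2* reads of shared windows in the tracheal *Lyz1* level, was not tested.

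Marker lists of leukocytes were read beside the members that leukocytes share. The 9 neutrophil markers summed to 0.101 to 0.813 RPKM in tracheal libraries, 14.8 to 26.7 RPKM in CD24lo libraries, 7.36 to 29.9 RPKM in EpCAM-negative libraries, at most 10.3 RPKM in CD24hi libraries and 5.99 to 11.5 RPKM in alveolar libraries, where *Lcn2* was at 840.0 RPKM ± 77.8 (SD, n = 3). These sums were below *Lcn2* and *Ltf* in CD24lo cells and below *Lcn2* in alveolar cells. They overlapped or exceeded *Lcn2* in CD24hi and EpCAM-negative cells (means of 8.13 and 6.17 RPKM) and exceeded *Ltf* in EpCAM-negative and alveolar cells (a mean of 1.11 RPKM in the former and libraries of up to 1.71 RPKM in the latter). Of them, *S100a8*, *S100a9* and *Retnlg* made up most, and *Ly6g*, *Mpo*, *Elane* and *Camp* had means of at most 0.128 RPKM in every population. The 7 macrophage markers summed to 11.1 to 17.1 RPKM in non-basal cells and 20.3 to 39.1 RPKM in alveolar cells. The highest sum, 59.0 RPKM, was in an EpCAM-negative library, a population in which *Lyz2* had its lowest mean, 264 RPKM ± 43.1 (SD, n = 3), with libraries that overlapped those of CD24hi cells. The part of neutrophils or macrophages in these levels was not tested.

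The BPI fold and defensin families were otherwise mostly under the filter on low counts, whereas most WAP genes passed it. Of 13 further BPI fold genes, 4 were tested. *Bpifb5* was 3.62 RPKM in non-basal and 0.0803 RPKM in BSCs (log2 fold change 5.43 ± 0.30, SE; edgeR adjusted p = 2e-10), but highest in alveolar cells with 20.2 RPKM. *Lbp*, the lipopolysaccharide-binding protein, was higher in CD24hi (74.7 RPKM) than in CD24lo cells (19.1 RPKM; -1.96 ± 0.14; adjusted p = 4.77e-09), opposite to the 10 genes. Of 6 further Reg genes, 3 were tested and all 3 were higher in non-basal cells than in BSCs and than in CD24lo cells, with 26.2% and 25.3% of all genes higher in these comparisons and *Reg1* at 8.22, 1.62 and 1.23 RPKM in non-basal cells, BSCs and CD24lo cells. Of 18 further WAP genes, 17 were in the files and 13 were tested, and 6 were higher and 1 lower in non-basal cells than in BSCs, where 26.2% of all genes were higher and 21.9% lower. *Wfdc1* led with 65.2 against 3.86 RPKM (4.08 ± 0.27; adjusted p = 2.1e-09). Of 11 further defensin and cathelicidin genes only 1 passed the filter, and it was called only in EpCAM-negative against alveolar cells, where it was higher.

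A list of 23 other defence genes held mostly secreted proteins, and also enzymes of the cell itself that make antimicrobial oxidants, such as *Duox1* in the membrane and *Nos2* in the cytosol. Of 21 tested, 10 were higher and 7 lower in non-basal cells than in BSCs, against 26.2% and 21.9% of all genes, with a median log2 fold change of 2.12. *Dmbt1*, a scavenger-receptor glycoprotein that binds bacteria, was at 74.8 RPKM in non-basal cells, 2.72 RPKM in BSCs and 0.204 RPKM in CD24lo cells. The lectin gene *Itln1* ran in parallel, at 25.6, 0.700 and 0.817 RPKM. Both thus had their highest level in non-basal cells, as *Bpifa1*, *Reg3g* and *Ltf* did. These 3 members were, however, at means of 8921, 1253 and 214 RPKM in CD24lo cells, where *Dmbt1* and *Itln1* were low. *Duox1*, an oxidase that makes hydrogen peroxide, shared the direction of *Defb1*, with 9.97 RPKM in BSCs and 0.570 RPKM in non-basal cells (-4.12 ± 0.20, SE; edgeR adjusted p = 3.74e-11). In CD24lo cells 12 of the 21 were higher and 4 lower than in CD24hi cells (median 2.23), against 27.2% and 27.8% of all genes, among them *Tff2*, a secreted trefoil peptide, at 347 against 28.5 RPKM, *Trf* (transferrin) at 483 against 53.9 RPKM and the peptidoglycan-binding *Pglyrp1* at 104 against 12.4 RPKM. *Nos2*, the inducible nitric oxide synthase, was at 17.8 RPKM in CD24hi and 2.48 RPKM in CD24lo cells (-2.82 ± 0.31; adjusted p = 1.14e-06). Non-basal cells differed from CD24lo cells by 6 higher and 12 lower genes of this list (median -0.69), against 25.3% and 27.8% of all genes. *Pglyrp1* was among the higher ones, at 970.0 against 104 RPKM.

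Of 20 genes for receptors and transcription factors that act upstream of such proteins, 3 were higher and 4 lower in non-basal cells than in BSCs, beside 26.2% and 21.9% over all genes. In CD24lo against CD24hi cells 10 were higher and 4 lower, beside 27.2% and 27.8% over all genes. With library size alone the counts were 2 and 13 in the first comparison and 9 and 7 in the second. *Spdef*, a transcription factor of goblet cells, was at 23.2 RPKM in non-basal cells, 9.33 RPKM in CD24lo, 4.48 RPKM in BSCs and 1.48 RPKM in CD24hi cells, and was the gene of this list with the largest rise in non-basal cells (2.37 ± 0.14, SE; edgeR adjusted p = 3.48e-10). *Ehf* was at 143, 46.1, 110 and 10.1 RPKM in the same order. *Il22ra1*, a subunit of the receptor for interleukin 22, stood against the members in the lung airway, at 8.43 RPKM in CD24hi and 0.829 RPKM in CD24lo cells (-3.33 ± 0.30; adjusted p = 4.05e-08). *Nfkbiz*, an NF-κB cofactor, was at 126 RPKM in BSCs and 70.7 RPKM in non-basal cells. Alveolar cells had the highest *Cebpa* level, 223 RPKM against 69.0 RPKM in CD24lo cells (adjusted p = 1.38e-09).

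For partners and receptors of the 10 proteins, 8 of 10 genes were tested. *Lrp2*, or megalin, an endocytic receptor that takes up lipocalin 2, was at 29.0 RPKM in alveolar cells and lower in each other population, by 4.27 ± 0.18 (SE) on the log2 scale in CD24lo cells, which came next (edgeR adjusted p = 2.38e-12). It therefore had its highest level in the population with the highest *Lcn2*. *Slc22a17*, described as another lipocalin 2 receptor, ranged from 8.84 RPKM in CD24hi to 27.6 RPKM in alveolar cells. *Lrp1*, which binds lactoferrin, was at 199.7 RPKM in EpCAM-negative cells, where *Ltf* was at 1.11 RPKM, and at most 31.1 RPKM in the epithelial gates. In CD24lo cells 5 of the 8 genes were higher than in CD24hi cells, with 27.2% of all genes called higher. Against alveolar cells 4 were lower, with 24.2% of all genes called lower.

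The genes whose level followed each member most closely were sought among 12053 others with at least 10 CPM in 3 libraries, by Pearson's r of log2 (RPKM + 0.1) over the 18 libraries. *Cyp4a12b* was nearest to *Bpifa1* (r = 0.996), *Reg3g* (0.994) and *Ltf* (0.993), at 217 RPKM in non-basal cells, 20.8 RPKM in BSCs and 23.5 RPKM in CD24lo cells. *Acsl1* and *Vipr1* came next for *Bpifa1*, *Atp6v1b1* and *Tacr1* for *Reg3g*, and *Pglyrp1* and *Acsl1* for *Ltf*. *Scgb3a1* was nearest to *Bpifb1* (0.989) and to *Pigr* (0.985), and *Muc5b* was among the nearest 3 of both. *Lhfpl1* (0.980), *Fads2b* and *Trim29* were nearest to *Defb1*. For *Lcn2* they were *Npc2* (0.986), *Mtfr1l* and *Hacd3*, for *Slpi* *Wdr45* (0.952), *Cyp4v3* and *Bex4*, for *Lyz2* *Bex1* (0.973), *Stard3* and *Tm7sf2*, and for *Wfdc2* *Fgfbp1* (0.994), 0610040J01Rik and *Spint1*. These values carry no p, since the libraries of 1 population are alike in most genes.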

How the data were processed

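RNA of 18 libraries was sequenced by the authors as single-end reads, aligned to mm10 with Rsubread and counted per Entrez gene with featureCounts and its in-built RefSeq annotation. The submitters' processing notes also name bcl2fastq 1.8.4. The deposited values are raw counts, not normalized, for 27179 genes, and whether strand was used in counting is not given in the sources used here. The authors deposited a gene length beside each count, which served for RPKM. One further deposited table joins these counts for every sample and was left aside. No gene identifier was blank. Symbols came from NCBI's gene table, which matched 25275 identifiers. The series' design text speaks of airway cells of lungs, whereas the sample labels name trachea for basal and non-basal cells. The labels were followed.

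Testing was done in R 4.3.3. The 17989 genes that passed 0.2 CPM in 3 libraries or more entered 1 quasi-likelihood fit (edgeR 4.0.16, glmQLFit and glmQLFTest, TMM scaling) that covered all 18 libraries, and p-values were adjusted after Benjamini and Hochberg across those genes. Alternatives were limma 3.58.1 voom (the study's own tool), DESeq2 1.42.0, scaling by library size alone or by RLE factors, no filter or one at 1 CPM, only the libraries compared, a replicate block by mouse, tracheal libraries thinned to lung depth, and leaving out each library. A fit without 5 libraries that stood apart (chi-square per degree of freedom over 20 with both others and under 10 between these) was chosen after seeing the data. The workflow was tested on simulated data.

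Same-numbered libraries of 1 organ come from 1 mouse by the labels, so numbers pair the samples there. Their deviations from the population means had correlations of 0.34, 0.12 and 0.22 between non-basal cells and BSCs and 0.28, 0.04 and 0.17 between CD24lo and CD24hi cells. For the comparisons with alveolar cells of the same mice they ran from -0.06 to 0.09. Non-basal and CD24lo cells, from different mice, gave 0.034, 0.027 and -0.005. Depth was 29317215 to 32993621 counted reads in trachea and 9811503 to 13208897 in lung, so low genes carry more counting error in lung.

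The 10 genes and the lists of other genes were chosen with earlier results of these data known. From each list, up to 4 called genes per comparison with the largest fold change, at least 5 CPM in the higher group and no overlap could be named, and *Lyz1* always. Their levels in further populations are given as descriptions.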

Additional observations from a re-analysis of the deposited data

How the results depend on the processing

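The number of the 10 genes called kept within 1.5 times of the value reported in all 6 comparisons under each alternative run, as did the number of all genes called, and each gene kept its highest population in the scalings and left-out libraries tried. Of 958 alternative log2 fold changes of the 10 genes, 940 kept direction and side of the threshold, 9 lost and 4 gained a call, all of *Wfdc2* or *Defb1* and given with their comparisons, and 5 changed sign. The sign changes were in EpCAM-negative against alveolar cells, where neither gene was called. With 1 library left out, the log2 fold change of *Bpifa1* (0.08 in the full fit) ranged from -0.063 to 0.28, with -0.039 without alveolar library 1 and -0.025 without EpCAM-negative library 3. That of *Bpifb1* (0.07) ranged from -0.078 to 0.27, with -0.016 without EpCAM-negative library 2. The cause was not tested.

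With mouse as a replicate block, all 60 fold changes of the 10 genes kept direction and side of the threshold, and 8896 genes in place of 8668 were called between non-basal cells and BSCs. In a fit of only the 6 libraries, *Defb1* did not pass the filter in CD24hi or EpCAM-negative against alveolar cells. Depth limits *Defb1* in lung, with 0 to 123 reads per library, and *Lcn2* in BSCs, with 11 to 15 reads. *Slpi* was also low, with 19 to 36 reads per BSC library and 13 to 31 per CD24hi library.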
